A study of Mus musculus with 8 samples.

Results

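Fatty acid oxidation genes were examined as a set of 46 genes, listed by symbol, out of 22609 genes counted in RNA from liver CD8 T cells. All 46 symbols were present in the count tables. The cells came from male C57BL/6J mice, 6 weeks old, given an agonist antibody against CD137 on day 0, 3 and 6 and killed on day 8. CD137 is a costimulatory receptor of T cells, and every library came from antibody-treated mice, so no untreated level is part of these data. The sort kept live CD45+ TCRβ+ CD8α+ cells without CD4, MHC class II or NK1.1 with KLRG1 and without CD127, markers that set short-lived effector cells apart from memory precursors. Of these, the CD11c+ cells gave 4 libraries and the CD11c- cells gave 4 libraries, and the comparison asks whether the genes of fat burning differ between cells with and without CD11c, an integrin chain better known from dendritic cells. Libraries are numbered within a subset, but no label ties them to individual mice. The p-values therefore reflect library-to-library spread, which may be partly or wholly technical.

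Cells burn long-chain fatty acids in stages. Acyl-CoA synthetases first join the fatty acid to coenzyme A, and the carnitine shuttle (CPT1 in the outer mitochondrial membrane, the carrier encoded by Slc25a20, and CPT2 in the inner membrane) moves the acyl group into the matrix. There, beta-oxidation removes carbon in repeated rounds of dehydrogenation, hydration, a further dehydrogenation and thiolysis, and the electrons pass through the electron transfer flavoprotein to the respiratory chain. Peroxisomes run a parallel pathway that shortens very long and branched chains and hands the products on as carnitine esters. Memory CD8 T cells are known for their use of this pathway, whereas proliferating effector cells rely more on glycolysis.

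The set was sorted by place in the cell into 22 mitochondrial genes, 6 peroxisomal genes, 4 genes whose products are found in both organelles or are not clearly placed (Crat, Acad11, Ech1 and Eci2), and 14 that act elsewhere. Hadha and Hadhb, which encode the alpha and beta subunits of the mitochondrial trifunctional protein, are neighbours on opposite strands of chromosome 5 with their starts facing away from each other. Their promoter windows (250 bases before to 50 after each gene's start, RefSeq, GRCm38.p6) therefore share 228 bases. The window is shown because this gene pair gave the one member whose libraries did not overlap between subsets, while its partner's did. Of all genes tested, 1.85% lay lower in CD11c+ without overlap and 1.6% higher, so 1 such member among 39 does not set the pair apart. It lies at chr5:30155003-30155302, plus strand, 5′ to 3′ in the direction of Hadhb, and the capitals mark the 228 bases that also lie in the Hadha window.
Hadhb: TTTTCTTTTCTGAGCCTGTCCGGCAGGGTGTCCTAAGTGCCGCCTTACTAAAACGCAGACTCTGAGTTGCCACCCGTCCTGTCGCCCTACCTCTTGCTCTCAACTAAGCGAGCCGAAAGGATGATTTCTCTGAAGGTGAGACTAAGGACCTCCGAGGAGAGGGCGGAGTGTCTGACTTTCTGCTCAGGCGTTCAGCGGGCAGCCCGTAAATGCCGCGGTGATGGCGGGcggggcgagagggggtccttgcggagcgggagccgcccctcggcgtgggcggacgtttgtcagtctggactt

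Promoter windows of 39 of the 46 genes were in the RefSeq table, 42 windows in all, and these were searched on both strands for binding motifs of regulators of the pathway. The peroxisome proliferator response element, bound by the PPAR receptors and searched as AGGTCA repeated once with any 1 base between the copies, was in 0 of the 42 windows and in 0.0396% of all 32851 windows. Only this exact form was searched, and at so low a share 0 of 42 windows does not show that the members lack such elements. A single AGGTCA, which also counts within longer motifs, was in 6 windows (of Acadm, Acadvl, Acsl6, Cpt1a, Cpt1c and Echs1) and in 16.3% of all windows. The estrogen-related receptor element TCAAGGTCA, which holds AGGTCA, was in 1 window (Acsl6) and in 0.423% of all. The palindrome made of GCGCA followed by its reverse complement, bound by NRF1, a regulator of nuclear genes for mitochondrial proteins, was in 3 windows and in 0.971% of all. Those 3 stretches are shown with the palindrome in capitals, because the genes that carry it ran from well expressed (Etfdh) to nearly without reads (Ppara). They lie at chr3:79628871-79628910 (minus strand) for Etfdh, chr5:121660494-121660533 (minus strand) for Acad10 and chr15:85735730-85735769 (plus strand) for Ppara, all GRCm38.p6 and 5′ to 3′ along the gene.
Etfdh: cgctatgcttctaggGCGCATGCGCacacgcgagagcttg
Acad10: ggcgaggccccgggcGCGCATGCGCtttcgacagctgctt
Ppara: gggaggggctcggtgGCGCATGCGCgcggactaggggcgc

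Libraries held 5090345 to 7093163 reads in genes and 10482 to 12581 genes with at least 1 read. The 46 genes took 0.317% to 0.322% of gene reads in the CD11c+ libraries and 0.322% to 0.350% in the CD11c- libraries. Levels are given as CPM, read counts scaled by library size and TMM normalization factors to the usual CPM unit. The T cell markers Cd3d, Cd3e, Cd3g, Cd8a, Cd8b1, Cd2 and Nkg7 summed to 10156 to 11993 CPM in CD11c+ and to 10786 to 11562 CPM in CD11c- libraries. As liver parenchyma is rich in these enzymes, 16 hepatocyte genes were looked at too. They summed to 0.196 to 40.8 CPM in CD11c+ and to 2.04 to 48.8 CPM in CD11c- libraries, with Apob and Cps1 at 0 reads in every library and Alb at 4.37 CPM at most. Macrophage, monocyte and neutrophil genes (12 measured) summed to 108 to 701 CPM in CD11c+ and to 108 to 329.9 CPM in CD11c- libraries, the highest being CD11c+ replicate 3. Dendritic and B cell genes (12 measured) summed to 120.05 to 314 CPM in CD11c+ and to 62.5 to 155 CPM in CD11c- libraries. NK cell genes (5 measured) summed to 5.92 to 10.3 CPM in CD11c+ and to 1.68 to 5.83 CPM in CD11c- libraries, and endothelial and stellate cell genes (7 measured) to 17.8 to 28.1 CPM in CD11c+ and to 24.7 to 39.4 CPM in CD11c- libraries. Klra4, Klra8 and Col3a1 were at 0 reads throughout. The part of these other cells in the values below was not tested, and in bulk RNA fewer cells with a transcript and less transcript per cell cannot be told apart.

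Most of the mitochondrial pathway was expressed, while several isoforms and the best known regulators had few reads or none. To compare genes with each other, CPM were divided by exon length (the union of GENCODE M21 exons, GRCm38). On this scale Etfb was the most abundant gene, with 440.3 CPM per kb in CD11c+ and 481 CPM per kb in CD11c- libraries, followed by Ech1 (201 in CD11c+ and 239.6 CPM per kb in CD11c-) and Acot7 (192 in CD11c+ and 173 CPM per kb in CD11c-). Acadl and Acsl5 came next and did not differ from each other beyond their spread, Acadl at 97.5 ± 8.74 and Acsl5 at 103 ± 13.1 CPM per kb in CD11c+ libraries, and Acadl at 111 ± 8.56 and Acsl5 at 105 ± 6.65 CPM per kb in CD11c- libraries (SD, n = 4 each). The shuttle genes stood in the middle of the order, with Slc25a20 at 18.4, Cpt1a at 13.2 and Cpt2 at 15.2 CPM per kb in CD11c+ libraries, against 19.8, 19.4 and 13.4 CPM per kb for the same genes in CD11c- libraries.

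At the other end, 7 of the 46 genes did not pass the filter on low counts. Cpt1b, the CPT1 isoform of muscle, Acsl6, an acyl-CoA synthetase of brain, and Ppargc1a, which encodes the coactivator PGC-1α, had 0 reads in all 8 libraries, which allows at most 0.131 CPM in CD11c+ and 0.127 CPM in CD11c- cells (3 reads over the summed reads of the subset, counting error only). For Cpt1b that limit is weak, since 78.6% of its 50-base windows also occur in the annotated transcript Gm44502. Ppara, which encodes the PPARα receptor that drives this pathway in liver, had 0 reads in the CD11c+ and 6 reads in the CD11c- libraries. Cpt1c, the CPT1 isoform of neurons, had 3 reads in CD11c+ and 8 in CD11c- libraries, Acsl3, a further synthetase, 2 in CD11c+ and 16 in CD11c-, and Acaa1b, a peroxisomal thiolase, 27 in CD11c+ and 29 in CD11c-. Acaa1b shares 39.6% of its 50-base windows with other genes, mostly with Acaa1a, so part of its reads could have gone uncounted.

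**Figure D1:**
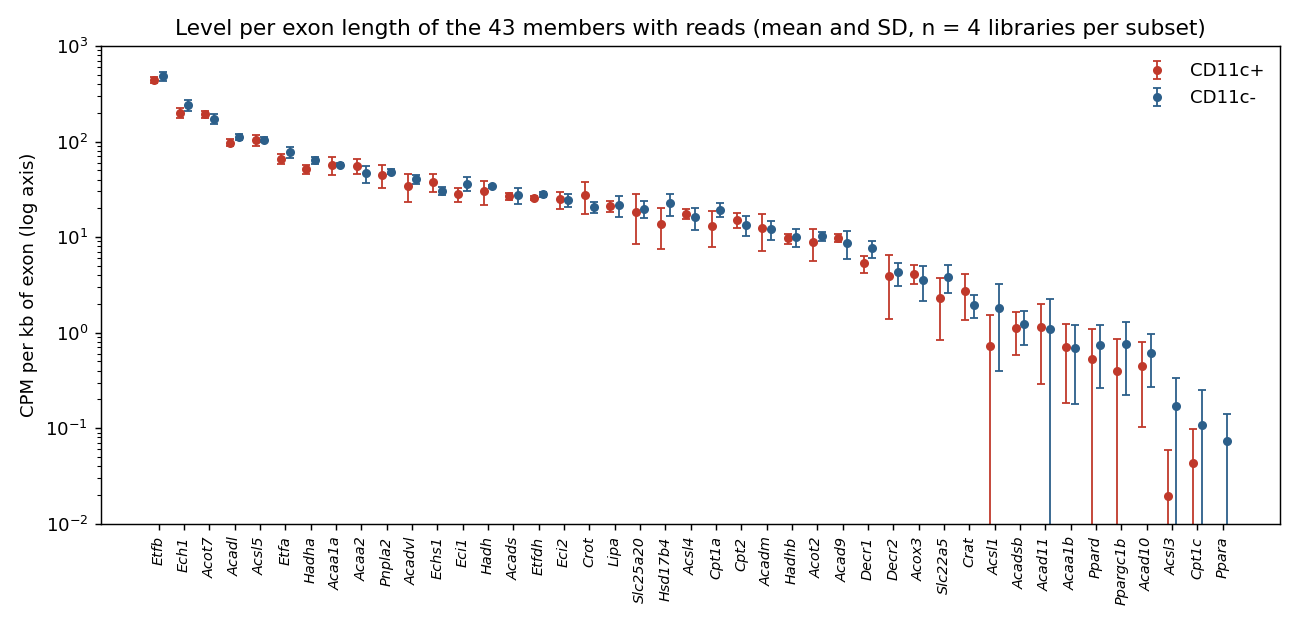
Level per exon length, in CPM per kb of exon on a log axis, of the 43 members with at least 1 read, ordered by their mean over 8 libraries. Points are means and bars SDs of 4 CD11c+ (red) and 4 CD11c- (blue) libraries, and a bar that runs to the lower edge has an SD at or above the mean. Etfb, Ech1 and Acot7 lead, Ppara, Cpt1c and Acsl3 trail, and Cpt1b, Acsl6 and Ppargc1a, at 0 reads, are not drawn.

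Between the subsets, 0 of the 39 tested members passed the threshold of adjusted p = 0.05 by edgeR's quasi-likelihood test with Benjamini-Hochberg adjustment over 10073 genes. Of all genes tested 0.0496% passed, 0.0298% higher and 0.0199% lower in CD11c+ cells. DESeq2, which called 0.333% of its genes, and limma voom, which called 0.189%, also called 0 members. The lowest adjusted p was 0.99 by edgeR, 0.547 by DESeq2 and 0.924 by limma voom. At an unadjusted p under 0.05 edgeR gave 1 of 39 members, Hadha, where 4.7% of all genes tested had one by edgeR. DESeq2 gave 3 of 43 members and limma voom 0 of 39. For DESeq2 and limma voom the share of all genes at that level was not counted. Log2 fold changes, CD11c+ over CD11c-, were negative for 27 of the 39 and positive for 12, where 48.3% of all genes tested were negative and 51.7% positive. Their median was -0.12, and 0.01 over all genes tested. These counts and medians describe the set and carry no test of it.

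The carnitine shuttle had no member past the threshold, and its entry enzyme varied widely among CD11c+ libraries. Cpt1a, which encodes the liver-type CPT1 that sets the pace of mitochondrial oxidation, was at 29.3, 47.8, 82.8 and 67.7 CPM in the CD11c+ libraries (replicates 1 to 4, as in all lists of this kind) and at 80.6, 66.2, 98.2 and 89.9 CPM in the CD11c- libraries. CD11c+ replicates 1 and 2 were the low ones, replicates 3 and 4 lay within the CD11c- range, and the groups overlapped. The log2 fold change was -0.55 (SE 0.28, adjusted p = 0.991, edgeR). With 1 library left out it ran from -0.80, without CD11c+ replicate 3, to -0.34, without CD11c+ replicate 1. It was -0.18 without CD11c+ replicates 1 and 2 and CD11c- replicate 1, the 3 libraries in which the fewest genes were detected. Whether the lower gene detection bears on Cpt1a was not tested.

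Slc25a20, the carrier that exchanges acylcarnitine for carnitine across the inner membrane, was at 33.4, 15.4, 56.8 and 25.6 CPM in CD11c+ libraries and at 26.7, 38.1, 33.7 and 42.6 CPM in CD11c- libraries. The highest and the lowest library were both CD11c+, and the log2 fold change was -0.11 (SE 0.35). Cpt2, which regenerates acyl-CoA in the matrix, was at 41.4, 33.7, 28.0 and 40.7 CPM in CD11c+ libraries and at 22.5, 33.6, 31.0 and 40.2 CPM in CD11c- libraries, with a log2 fold change of 0.18 (SE 0.24), or 0.032 without CD11c- replicate 1 and 0.30 without CD11c- replicate 4. The groups overlapped for both genes. Slc22a5, which encodes the plasma membrane carnitine importer OCTN2, averaged 7.04 ± 4.50 CPM in CD11c+ and 11.8 ± 3.91 CPM in CD11c- libraries, and Crat, the carnitine acetyltransferase, 12.4 ± 6.23 CPM in CD11c+ and 8.97 ± 2.43 CPM in CD11c- libraries (SD, n = 4 each). Of the windows of Slc22a5, 26.1% also occur in its relative Slc22a21.

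**Figure D2:**
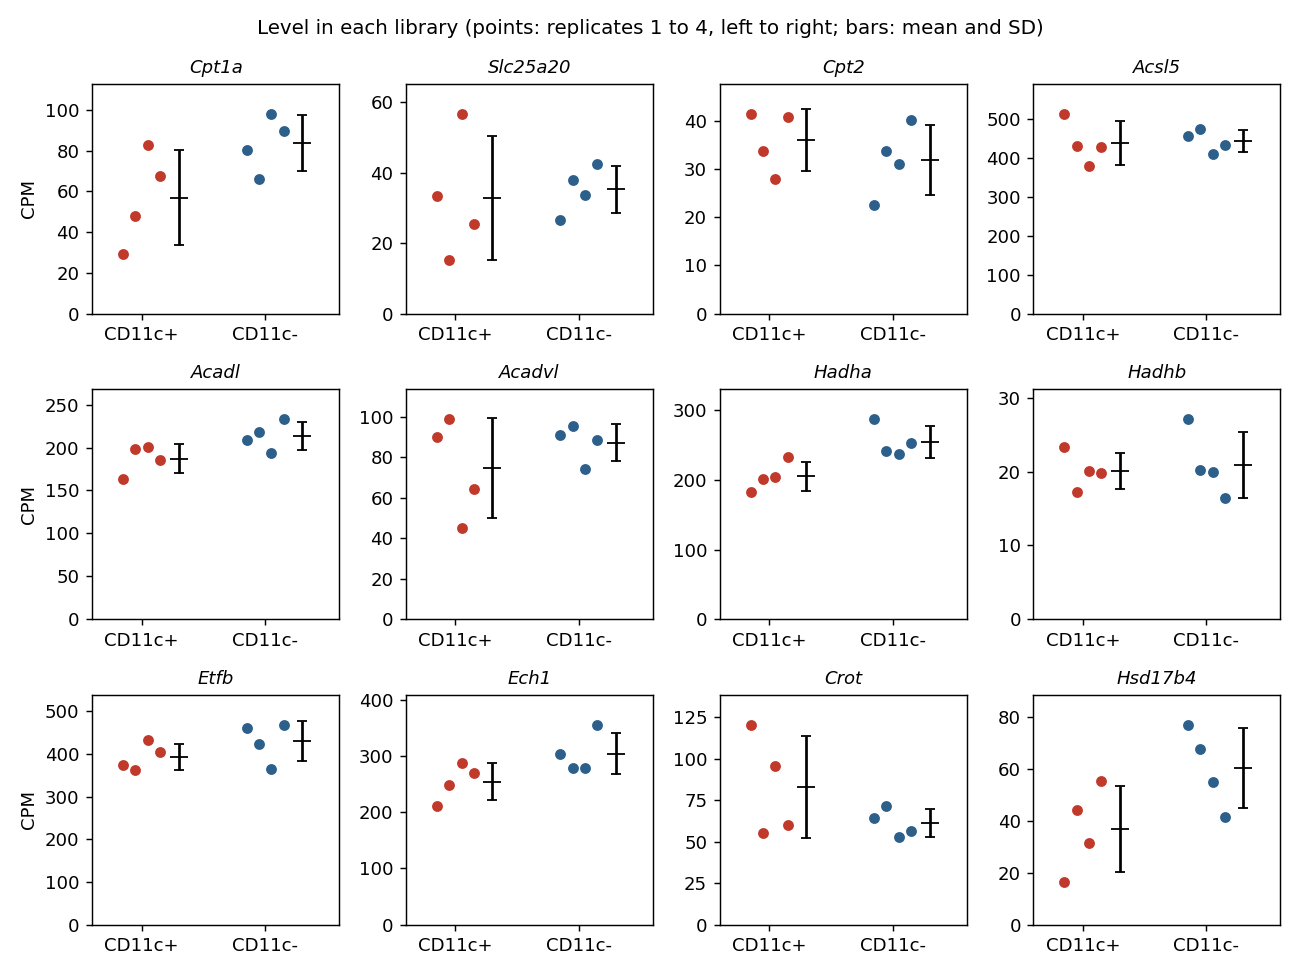
CPM in each library for 12 members, with 4 CD11c+ libraries (red) left of 4 CD11c- libraries (blue), replicates 1 to 4 from left to right, and the mean and SD beside them. Hadha is the only panel in which the subsets do not overlap, at 182 to 233 CPM in CD11c+ and 237 to 287 CPM in CD11c- libraries. Of all genes tested, 1.85% lay lower in CD11c+ without overlap and 1.6% higher. Hadhb overlaps, and Cpt1a, Slc25a20 and Crot spread more within CD11c+ than within CD11c- libraries.

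Among the acyl-CoA synthetases of the set, Acsl5 and Acsl4 had the highest levels. Acsl5 was at 515, 432, 381 and 428 CPM in CD11c+ libraries and at 456, 475, 409.9 and 433 CPM in CD11c- libraries, and the CD11c- range lay inside the CD11c+ range. Its log2 fold change was -0.02 (SE 0.11). Acsl4, which prefers arachidonate, was at 103, 103, 82.0 and 87.6 CPM in CD11c+ and at 95.6, 84.7, 107 and 54.8 CPM in CD11c- libraries. Acsl1, the main synthetase of liver, fat and heart, was low and uneven, from 0.196 to 7.95 CPM in CD11c+ and from 3.20 to 16.3 CPM in CD11c- libraries. Its log2 fold change of -1.30 (SE 0.88, adjusted p = 0.991) turned to 0.14 without the 3 libraries poorest in detected genes, among them the lowest CD11c+ and the highest CD11c- library for this gene, and was -0.63 without CD11c- replicate 1 alone and -2.41 without CD11c+ replicate 4 alone.

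The acyl-CoA dehydrogenases, which catalyse the first step of each round and differ in the chain length they take, were led by Acadl. Acadl, for long chains, was at 164, 198, 200.4 and 185 CPM in CD11c+ libraries and at 209, 218, 194 and 233 CPM in CD11c- libraries, a log2 fold change of -0.19 (SE 0.12). Only CD11c- replicate 3 fell inside the CD11c+ range. Acadvl, for very long chains, was at 90.1, 98.8, 45.1 and 64.5 CPM in CD11c+ and at 91.2, 95.4, 74.1 and 88.5 CPM in CD11c- libraries, with CD11c+ replicates 3 and 4 below the rest and a log2 fold change of -0.23 (SE 0.23). It was -0.05 without CD11c+ replicate 3, -0.40 without CD11c+ replicate 2, -0.39 by limma voom, and -0.66 without the 3 libraries poorest in detected genes (unadjusted p = 0.00941, adjusted p = 0.59, edgeR). Of the windows of Acadvl, 26.9% also occur in the neighbouring gene Dvl2, and such reads cannot be assigned without strand. Acads, for short chains, averaged 49.9 ± 4.10 CPM in CD11c+ and 51.6 ± 9.97 CPM in CD11c- libraries, and Acadm, for medium chains, 25.2 ± 10.7 CPM in CD11c+ and 24.6 ± 5.28 CPM in CD11c- libraries (SD, n = 4 each).

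The remaining dehydrogenases were low or overlapped. Acad9, known mainly as an assembly factor of respiratory complex I, averaged 38.8 ± 4.00 CPM in CD11c+ and 34.4 ± 11.1 CPM in CD11c- libraries. Acadsb, which acts on branched short chains, averaged 7.49 ± 3.56 CPM in CD11c+ and 8.25 ± 3.25 CPM in CD11c- libraries. Acad10 stayed at or below 3.27 CPM in CD11c+ and 3.95 CPM in CD11c- libraries. Acad11 had 0 reads in replicate 1 of both subsets and reached 7.33 CPM in CD11c+ and 10.5 CPM in CD11c- libraries. Of the 8 dehydrogenases, 5 had negative and 3 positive log2 fold changes, from -0.43 to 0.17.

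Hadha carried the lowest p of the set. It encodes the trifunctional protein's alpha subunit, which holds the hydratase and hydroxyacyl dehydrogenase activities for long chains. Hadha was at 182, 200.6, 204.7 and 233 CPM in CD11c+ libraries and at 287, 241, 237 and 254 CPM in CD11c- libraries. All 4 CD11c+ libraries lay below all 4 CD11c- libraries, and it was the only one of the 39 tested members with no overlap, where 1.85% of all genes tested lay lower in CD11c+ without overlap and 1.6% higher. Its means were 205 ± 20.9 CPM in CD11c+ and 255 ± 22.7 CPM in CD11c- libraries (SD, n = 4 each), a log2 fold change of -0.31 (SE 0.12), with unadjusted p = 0.0232 and adjusted p = 0.99 by edgeR. Without the 3 libraries poorest in detected genes the log2 fold change was -0.17 (unadjusted p = 0.282, edgeR).

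Hadhb, the beta subunit with the thiolase activity, was less abundant and less precisely measured. It was at 23.3, 17.3, 20.1 and 19.8 CPM in CD11c+ libraries and at 27.1, 20.2, 19.9 and 16.4 CPM in CD11c- libraries, and was described here after its values were seen. The CD11c+ range lay inside the CD11c- range, with a log2 fold change of -0.05 (SE 0.27), an error wide enough to include the log2 fold change of Hadha, so the genes were not shown to differ in response. Per exon length, Hadha was 4.05 to 6.08 times the level of Hadhb in CD11c+ and 5.49 to 8.01 times in CD11c- libraries; both subunits enter the same complex in equal number. Of the 50-base windows of Hadhb, 19.7% also occur in other annotated genes, chiefly Gm13910 (18.1%), against 0.341% for Hadha. The counting left out reads that aligned in more than 1 place, and how far this lowered Hadhb was not tested.

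The other genes of the later steps leaned both ways without passing. Acaa2, the mitochondrial ketoacyl thiolase, was at 105, 80.5, 70.7 and 79.97 CPM in CD11c+ and at 52.0, 68.5, 76.2 and 84.8 CPM in CD11c- libraries, a log2 fold change of 0.25 (SE 0.19), or 0.13 without CD11c- replicate 1 and 0.13 without CD11c+ replicate 1. Echs1, the short-chain enoyl-CoA hydratase, averaged 58.7 ± 12.3 CPM in CD11c+ and 47.4 ± 4.85 CPM in CD11c- libraries, and Hadh, the hydroxyacyl dehydrogenase for shorter chains, 53.9 ± 14.8 CPM in CD11c+ and 60.8 ± 2.57 CPM in CD11c- libraries (SD, n = 4 each). Hadh spread from 36.3 to 71.6 CPM in CD11c+ libraries and from 57.4 to 63.6 CPM in CD11c- libraries.

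Auxiliary enzymes, which move or remove double bonds of unsaturated fatty acids, were mostly lower in mean. Ech1, a dienoyl-CoA isomerase, was at 212, 249, 288 and 269 CPM in CD11c+ and at 304, 278, 277 and 355 CPM in CD11c- libraries. CD11c+ replicate 3 alone reached into the CD11c- range, and the log2 fold change was -0.26 (SE 0.13, adjusted p = 0.991). Eci2, an enoyl-CoA isomerase, was at 47.3, 52.0, 42.8 and 30.9 CPM in CD11c+ and at 51.8, 42.4, 40.8 and 35.2 CPM in CD11c- libraries. Eci1, its mitochondrial counterpart, averaged 36.5 ± 6.26 CPM in CD11c+ and 47.0 ± 7.88 CPM in CD11c- libraries, and Decr1, the dienoyl-CoA reductase, 15.7 ± 3.16 CPM in CD11c+ and 22.5 ± 4.73 CPM in CD11c- libraries (SD, n = 4 each). Their log2 fold changes were -0.37 (SE 0.21) and -0.52 (SE 0.29).

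Electron transfer genes were abundant, and all 3 had slightly negative log2 fold changes. Etfb, the beta subunit of the electron transfer flavoprotein, was at 374, 363, 432 and 404 CPM in CD11c+ and at 461, 424, 365 and 469 CPM in CD11c- libraries. Etfa, the alpha subunit, was at 86.2, 97.95, 104 and 81.1 CPM in CD11c+ and at 126, 113, 90.3 and 104 CPM in CD11c- libraries. Etfdh, the membrane enzyme that passes the electrons to ubiquinone, averaged 61.7 ± 2.68 CPM in CD11c+ and 68.0 ± 3.99 CPM in CD11c- libraries (SD, n = 4 each). The log2 fold changes were -0.13 (SE 0.11), -0.23 (SE 0.16) and -0.14 (SE 0.16), and the groups overlapped for each of the 3 genes. Etfb shares 44.8% of its windows with other annotated genes, mainly Gm45233, so its absolute level is uncertain.

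**Figure D3:**
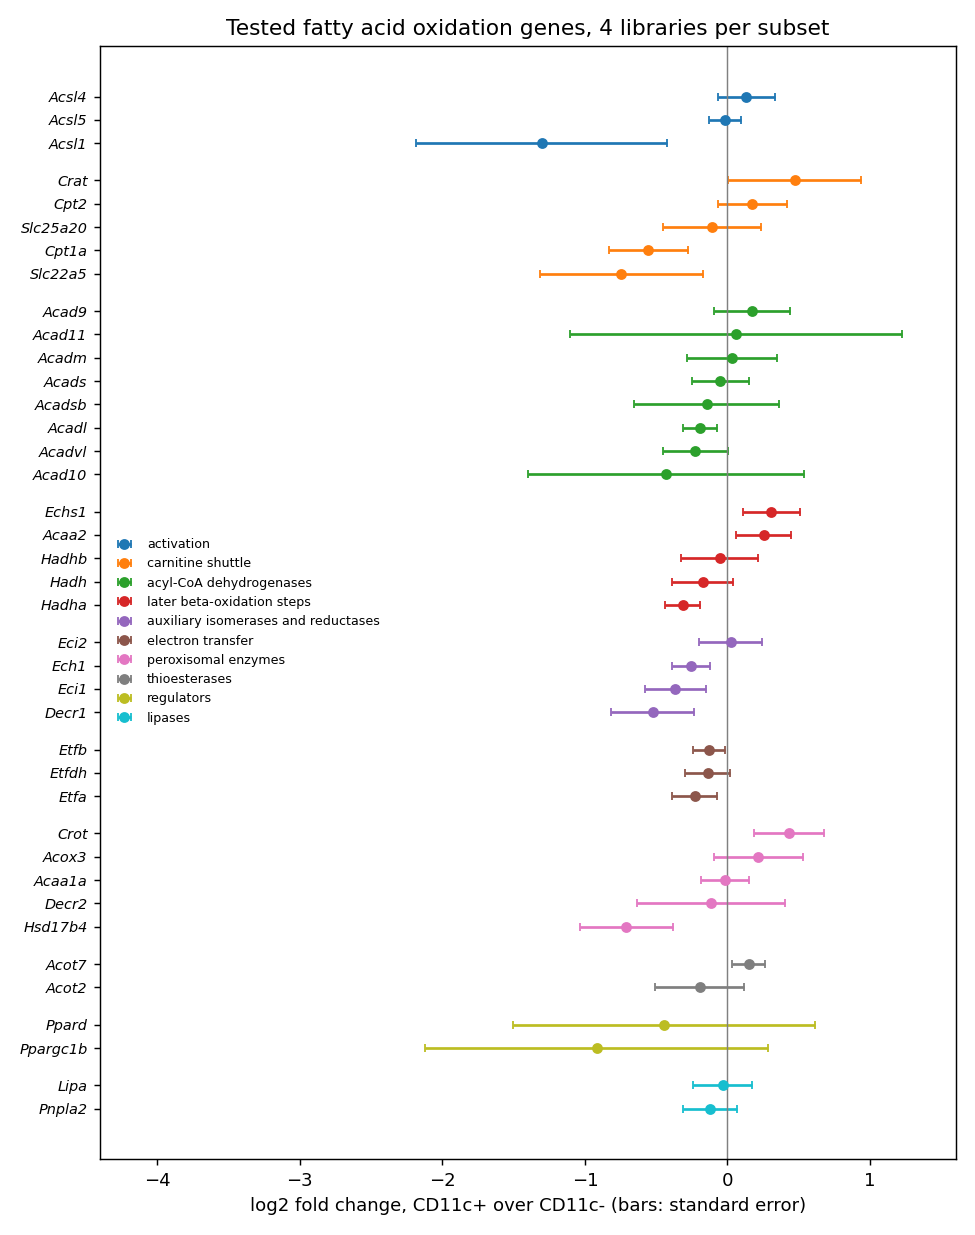
Log2 fold changes, CD11c+ over CD11c-, of the 39 tested members with their standard errors, grouped and coloured by role (edgeR, 4 libraries per subset). Most points lie left of 0 (27 of 39), Hadha at -0.31 has the lowest p, and the widest bars belong to genes of a few CPM such as Ppargc1b, Acad11 and Ppard.

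The peroxisomal enzymes leaned both ways. Crot, which turns shortened peroxisomal chains into carnitine esters, was at 120.4, 55.3, 95.5 and 60.0 CPM in CD11c+ and at 64.4, 71.6, 53.0 and 56.2 CPM in CD11c- libraries. CD11c+ replicates 1 and 3 stood above all others, and the log2 fold change was 0.43 (SE 0.25, adjusted p = 0.991). It was 0.19 without CD11c+ replicate 1 and 0.57 without CD11c+ replicate 2. Hsd17b4, the bifunctional enzyme for branched and very long chains, named here after its values were seen, was at 16.6, 44.2, 31.4 and 55.5 CPM in CD11c+ and at 77.2, 67.9, 54.9 and 41.8 CPM in CD11c- libraries. CD11c+ replicates 2 and 4 reached into the CD11c- range, and the log2 fold change was -0.71 (SE 0.33, adjusted p = 0.991). It was -0.47 without CD11c+ replicate 1 and -0.98 without CD11c+ replicate 4.

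Acaa1a, the peroxisomal thiolase, was at 127, 78.9, 107 and 86.5 CPM in CD11c+ and at 105, 97.9, 98.8 and 103 CPM in CD11c- libraries, with a log2 fold change of -0.01 (SE 0.17). Its mean was nearly equal in the subsets, and its CD11c+ libraries were the more scattered. Acox3, an acyl-CoA oxidase that acts on branched chains, averaged 28.5 ± 6.23 CPM in CD11c+ and 24.6 ± 9.74 CPM in CD11c- libraries, and Decr2, the peroxisomal dienoyl-CoA reductase, 9.04 ± 5.82 CPM in CD11c+ and 9.78 ± 2.65 CPM in CD11c- libraries (SD, n = 4 each).

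A score per library, the mean of log2(CPM + 1) over the tested members, set the compartments side by side. Over 21 tested mitochondrial members it was 5.47, 5.40, 5.46 and 5.43 in CD11c+ and 5.57, 5.63, 5.53 and 5.62 in CD11c- libraries. All CD11c+ libraries lay below all CD11c- libraries, by 0.15 between means (5.44 ± 0.03 in CD11c+ and 5.59 ± 0.05 in CD11c-, SD, n = 4 each). Of the 21 members, 16 had negative log2 fold changes, as did 48.3% of all genes tested. The same score was not taken over all genes tested. Leaving out the 3 libraries poorest in detected genes (CD11c+ replicates 1 and 2 and CD11c- replicate 1) gave a mitochondrial difference of -0.15 too. Dropping libraries cannot make ranges that lie apart overlap, so that setting could not test the overlap. With only the members at 5 CPM or more in 4 libraries the ranges overlapped (difference -0.14), as they did with each member scaled to an SD of 1.

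Over 5 tested peroxisomal members the score was 5.11, 5.37, 5.01 and 5.35 in CD11c+ and 5.17, 5.46, 5.37 and 5.22 in CD11c- libraries, and the subsets overlapped, with means of 5.21 ± 0.18 in CD11c+ and 5.30 ± 0.13 in CD11c- libraries (SD, n = 4 each). That difference of -0.09 was -0.03 without CD11c+ replicate 3 and -0.15 without CD11c+ replicate 2. The mitochondrial minus the peroxisomal score was 0.23 ± 0.21 in CD11c+ and 0.28 ± 0.13 in CD11c- libraries, a difference of -0.05 that was smaller than the spread between libraries. With each member scaled to an SD of 1 it was -0.43 in those units, larger than its SD of 0.311, with overlapping ranges. On the log2 scale it came to 0.01 without CD11c+ replicate 2 and to -0.13 without CD11c+ replicate 3. Over all 39 tested members the score was 5.19 ± 0.13 in CD11c+ and 5.36 ± 0.05 in CD11c- libraries, with overlapping ranges and a difference of -0.17. The overlap came only from CD11c+ replicate 4 (5.32) lying above CD11c- replicate 1 (5.29). Leaving out either of these libraries therefore removed it, with differences of -0.21 and -0.19. So did leaving out the 3 libraries poorest in detected genes (-0.09), as CD11c- replicate 1 is among them. With all 8 libraries, the ranges did not overlap with only the members at 5 CPM or more in 4 libraries (-0.11) or with members scaled to an SD of 1. Without CD11c+ replicate 1 the difference was -0.11, with overlap. In summed CPM the mitochondrial members came to 1528 to 1598 in CD11c+ and 1580.1 to 1830.5 in CD11c- libraries, and the peroxisomal members to 229 to 302 in CD11c+ and 235 to 276 in CD11c- libraries. As the members were chosen with earlier results of these data known, these scores have no p.

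**Figure D4:**
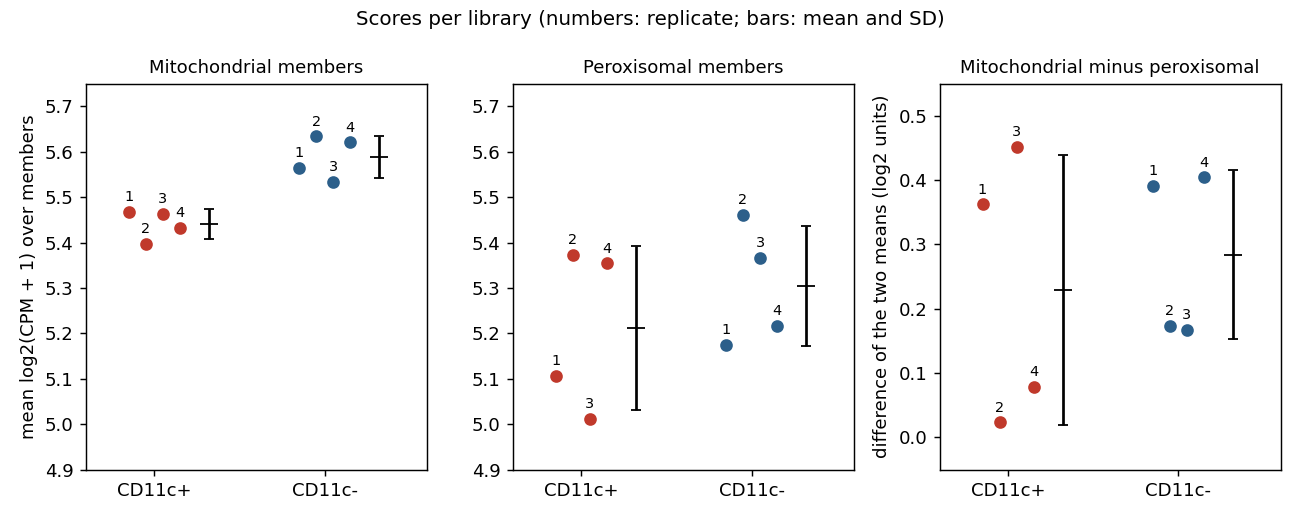
Mean log2(CPM + 1) per library over 21 mitochondrial members, over 5 peroxisomal members, and the difference between those means, for 4 CD11c+ (red, left) and 4 CD11c- (blue, right) libraries numbered by replicate, with mean and SD; the vertical axes do not start at 0. The mitochondrial scores of the subsets do not overlap (5.40 to 5.47 in CD11c+ and 5.53 to 5.63 in CD11c-), whereas the peroxisomal scores and the differences do.

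Thioesterases, lipases and regulators completed the set. Acot7, a cytosolic thioesterase that splits long-chain acyl-CoA, was at 335, 379, 329 and 385 CPM in CD11c+ and at 285, 357, 296 and 349 CPM in CD11c- libraries, a log2 fold change of 0.15 (SE 0.12). Acot2, its mitochondrial relative, was at 28.5, 11.5, 21.4 and 16.7 CPM in CD11c+ and at 20.4, 19.9, 24.5 and 24.7 CPM in CD11c- libraries, and shares 24.6% of its windows with Acot1. The groups overlapped for both.

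Pnpla2, which encodes the lipid droplet lipase ATGL, was at 73.3, 146, 124 and 124 CPM in CD11c+ and at 128, 126, 119.6 and 135 CPM in CD11c- libraries. CD11c+ replicate 1 was the lowest of the 8. Lipa, the lysosomal acid lipase that memory T cells use to release fatty acids, was at 51.0, 63.7, 71.1 and 63.0 CPM in CD11c+ and at 56.8, 66.5, 83.7 and 47.7 CPM in CD11c- libraries. Their log2 fold changes were -0.12 (SE 0.19) and -0.03 (SE 0.21).

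Among the regulators, only Ppard, which encodes the receptor PPARδ, and Ppargc1b, which encodes the coactivator PGC-1β, passed the filter on low counts. Ppard was at 0.391, 0, 2.67 and 3.90 CPM in CD11c+ and at 2.97, 1.26, 4.33 and 1.06 CPM in CD11c- libraries. Ppargc1b was at 0, 0, 2.85 and 3.12 CPM in CD11c+ and at 0.371, 4.20, 2.07 and 4.76 CPM in CD11c- libraries. At most 30 reads per library lay behind either gene, and the groups overlapped, with log2 fold changes of -0.44 (SE 1.06) for Ppard and -0.92 (SE 1.20) for Ppargc1b.

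Genes of the same pathway outside the set were read from the same test. Of 79 such genes found in the files, 64 were tested, and 0 passed the threshold in either direction by edgeR, DESeq2 or limma voom, while 0 higher and 3 lower had an unadjusted p under 0.05 by edgeR (4.7% of all genes tested had one in either direction, 2.26% lower). Dbi, the acyl-CoA binding protein, was at 272, 219, 311 and 324 CPM in CD11c+ and at 336, 337, 347 and 347 CPM in CD11c- libraries, with no overlap (log2 fold change -0.28, SE 0.13, adjusted p = 0.991). The CD11c- libraries lay close together and the CD11c+ libraries were scattered below them.

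Slc27a4, which encodes the fatty acid transport protein FATP4, was at 49.3, 48.9, 89.8 and 65.8 CPM in CD11c+ and at 109.5, 131, 128 and 72.6 CPM in CD11c- libraries (log2 fold change -0.80, SE 0.24, adjusted p = 0.876). CD11c+ replicate 3 and CD11c- replicate 4 crossed. By group, 12 of 22 tested genes of peroxisomal import and oxidation had negative log2 fold changes, 5 of 7 of fatty acid uptake and binding, 5 of 8 of malonyl-CoA and AMPK control, 7 of 9 nuclear receptor partners and targets, 5 of 6 of lipid droplets and lipolysis, 7 of 9 of branched chain and propionate oxidation, and 1 of 3 thioesterases. Pdk4, a classic target of the PPAR receptors, had 0 CPM in all 8 libraries.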

How the data were processed

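Per the labels' protocols, polyA RNA was reverse transcribed and preamplified by an adapted SMART-seq2 method over 10 to 12 PCR cycles, and 50 bp single-end reads were taken from 8 libraries. The authors deposited raw read counts per gene symbol. The submitters' processing notes name bcl2fastq, TopHat2 2.0.8b, HTSeq and mm9. Which annotation was used, and whether strand was, is not given in the sources used here, so reads of overlapping or antisense genes could not be separated. The 5 summary rows of each file stayed out of library sizes. Of uniquely placed reads 63.1% to 67.1% matched no counted feature and 0.169% to 0.201% were ambiguous. Multiply placed reads, which were not assigned, made up 50.3% to 53.6% of the sum of all rows.

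The 8 count tables (5090345 to 7093163 gene reads) were fitted in R 4.3.3 by edgeR 4.0.16 with filterByExpr, TMM factors, glmQLFit and glmQLFTest, with CD11c+ over CD11c- as the contrast, no covariate, and Benjamini-Hochberg adjustment over 10073 genes. SE are the log2 fold change divided by the square root of F. DESeq2 1.42.0, limma 3.58.1 voom with quality weights, other scalings and filters, and left-out libraries served as alternatives. Members and lists were chosen with earlier results of these data known. By rule, every library's value is printed for members with an unadjusted p under 0.05, members without overlap averaging at least 5 CPM, Cpt1a, Cpt2, Slc25a20, and the 2 tested members of highest CPM in each role. Libraries of a subset differed by more than read sampling (chi-square per degree of freedom at least 9.81 over genes with 10 or more reads). A 50-base window counted as shared where a GENCODE M21 transcript of another gene held the same bases, on either strand. Exon lengths and promoters are of GRCm38, not mm9, so levels per length are approximate. The scripts were tested on counts simulated from the means and dispersions of these data, with 200 genes changed per run. The edgeR test recovered 7.16% of 1.5-fold, 36.1% of 2-fold and 77.6% of 4-fold changes. Calls of 0 members therefore do not show that small differences were absent. Some genes of the pathway outside the set are counted in the list totals and not reported here by name.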

Additional observations from a re-analysis of the deposited data

How the results depend on the processing

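Across the planned and added settings (DESeq2, limma voom, RLE and library size scaling, no filter, a stricter filter, the other legacy setting of edgeR, the replicate block, and left-out libraries), 0 members and 0 companion genes passed the threshold in any setting, and the lowest adjusted p of a member was 0.547, by DESeq2. The number of members with an unadjusted p under 0.05 ran from 0 to 3. The share of all genes at that level was counted only for the main edgeR fit (4.7%). For Hadha the unadjusted p by edgeR was 0.0598 when CD11c+ replicate 1 and 0.0651 when CD11c- replicate 1 was left out, and its log2 fold change ran from -0.39 to -0.26 with 1 library left out. The median over the members ran from -0.15 to -0.09 with 1 library left out. The sign of the log2 fold change held in all settings for 19 of the 39 tested members.

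Scores of members scaled to an SD of 1, a unit that differs from log2 CPM, gave differences of -0.35 for all members, -0.49 for the mitochondrial members and -0.43 for the mitochondrial minus the peroxisomal score, with overlapping ranges for the mitochondrial score and for that difference. That last difference was 0.02 without the 3 libraries poorest in detected genes, an alternative chosen after seeing the data, and ran from -0.13 to 0.01 with 1 library left out. Without the same 3 libraries the sign reversed for Cpt2 (-0.032), Slc25a20 (0.10), Acadm (-0.14), Acad9 (-0.17), Acad10 (0.22), Acad11 (-0.11), Hadhb (0.074), Eci2 (-0.11), Acaa2 (-0.029), Acox3 (-0.21), Acsl1 (0.14), Ppard (0.58) and Lipa (0.013). It reversed with limma voom for Acadm (-0.0041), Acad9 (-0.011), Acad11 (-0.023), Hadhb (0.015) and Eci2 (-0.14). With 1 library left out, the log2 fold changes that crossed 0 ran from -0.52 to 0.12 for Slc25a20, -0.30 to 0.18 for Acadm, -0.19 to 0.027 for Acads, -0.048 to 0.27 for Acad9, -0.36 to 0.95 for Acad11, -0.51 to 0.052 for Acadsb and -0.17 to 0.086 for Hadhb. For the other genes that crossed 0 they ran from -0.088 to 0.15 for Eci2, -0.15 to 0.074 for Acaa1a, -0.54 to 0.13 for Decr2, -0.041 to 0.25 for Acsl4, -0.10 to 0.042 for Acsl5, -0.16 to 0.11 for Lipa and -0.26 to 0.044 for Pnpla2. The cause of these reversals was not tested.

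The labels give both subsets the numbers 1 to 4 without saying that a number marks a shared mouse or day. Deviations from the subset means correlated at 0.08, 0.19, 0.13 and 0.19 between libraries of the same number, and every library correlated best with its own number, a hint from the data and not from the design. As 1 of these was under 0.1, the numbers were not taken as pairs. With the replicate block, calls over all genes moved to 13 from 5, 0 members passed, the median over the members was -0.16, Acadm reversed to -0.024, and Cpt1a was at -0.63 (unadjusted p = 0.0179, adjusted p = 0.797, edgeR). Calls over all genes were 12 with no filter, 11 with the other legacy setting, 8 with the stricter filter, 36 by DESeq2, 19 by limma voom, 11 without the 3 libraries poorest in detected genes, and 1 to 5 with 1 library left out.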
